A study of Mus musculus with 6 samples.

Results

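The TGFβ superfamily ligands examined here were 10 genes of the 21240 in the count table, chosen by name: Tgfb1, Tgfb2, Tgfb3, Inhba, Inhbb, Bmp4, Bmp7, Gdf11, Gdf15 and Bmp1. Each had a row of its own, and 9 of the 10 passed the filter of at least 2 CPM (counts scaled to library size) in at least 2 libraries, which 11080 genes passed. Bmp7 did not pass and is described by its counts. Every adjusted p given here is from the quasi-likelihood test of edgeR, adjusted by Benjamini-Hochberg over all genes tested, and a gene is said to rise or fall where that p is under 0.05. The label holds for 9 of the genes, which encode secreted growth factors. Bmp1 carries a BMP name because its product was first isolated from bone extracts with the BMPs, but it encodes a metalloprotease and no ligand, so it is described apart.

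Most ligands of this family are made as precursors that are cut by furin-like proteases and secreted as dimers. Most signal by bringing type II and type I serine/threonine kinase receptors together. TGFβs and activins act mainly through SMAD2 and SMAD3, and most BMPs through SMAD1, SMAD5 and SMAD8. TGFβs leave the cell bound to their own propeptide and to latent TGFβ binding proteins and must be released, whereas several BMPs and activins are held in check by secreted antagonists. In mammary epithelium TGFβ is known both as a brake on growth and as an inducer of the epithelial-mesenchymal transition.

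NMuMG cells, a mouse epithelial line of mammary gland origin, were kept without serum and insulin for 6 h. They were then given TGFβ1 protein at 5 ng/ml for 2 h or for 12 h, or the solvent (4 mM HCl with 1 mg/ml BSA) for 2 h. Total RNA was sequenced by strand from 2 biological replicates of each of the 3 groups. Since vehicle was sampled at 2 h, TGFβ and the longer time without serum cannot be told apart in the comparison of 12 h with vehicle, and both comparisons with vehicle share its 2 libraries.

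Total counts were 14705886 to 23786993 a library, so that 1 count stood for 0.0435 to 0.0637 CPM after TMM scaling. The replicates correlated across genes at 0.985 in vehicle, 0.978 at 2 h and 0.993 at 12 h. All 8 genes of a list of known TGFβ targets rose at both times, among them Pmepa1, a feedback inhibitor of the pathway, with a log2 fold change (log2FC) of 3.59 (SE 0.254) at 2 h and 3.83 (SE 0.257) at 12 h, and Snai1, the transcription factor Snail, with 2 and 3 counts in vehicle, 181 and 206 at 2 h and 242 and 232 at 12 h. Snai1 passed the filter through treated libraries alone and so did Ltbp2 of this list, and the other 6 genes rose at both times as well. With single libraries left out, 6 to 8 of these genes were called at 2 h and 7 to 8 at 12 h. Of 10 epithelial markers, 6 passed the filter, with Cdh1, Krt8, Krt18 and Krt19 abundant and Epcam, Cldn3, Cldn7 and Esrp1 at or near 0. The summed level of this list was 5023 to 5863 CPM in vehicle, 6516 to 6522 CPM at 2 h and 10380 to 10420 CPM at 12 h. Its members moved apart at 12 h, where Krt8 went from 1073 ± 82.3 to 3329 ± 48.4 CPM and Krt18 from 2148 ± 328 to 6184 ± 82.7 CPM (SD, n = 2), while Krt19 fell from 1754 ± 128 to 455 ± 49.0 CPM (log2FC -1.95, adjusted p = 0.000103) and Cdh1 and Ocln had a log2FC of -0.07 and -0.52 (adjusted p = 0.762 and 0.117). The markers of fibroblasts summed to 2.02 to 3.95 CPM, most of it from Pdgfra, which passed the filter with group means of 2.45 to 2.63 CPM. Of the same list Thy1 was at 0, and Pdgfrb had 0 counts in both vehicle libraries, 2 and 3 at 2 h and 22 and 26 at 12 h. Those of immune cells summed to 5.31 to 7.71 CPM, most of it from Cd68, which passed the filter with group means of 5.07 to 6.25 CPM. Csf1r had group means of 0.725 to 0.864 CPM, and Cd3e was at 0. Markers of endothelium summed to 0.176 to 1.95 CPM with Emcn at 0, and those of adipocytes to 0.103 to 0.303 CPM with Lep at 0. The fibroblast sum was highest at 12 h, at 3.88 and 3.95 CPM, and so was the endothelial sum, at 1.74 and 1.95 CPM, of which Cdh5 held most with 39 and 36 counts. The part of other cell types in the changes of the ligands was not tested.

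Of the 3 TGFβ isoforms, Tgfb1 was the one that rose against vehicle. Its mRNA, which is read from the cells' own gene and not from the protein added, was about double the vehicle level after 2 h and stayed near that level at 12 h. Tgfb2 and Tgfb3 moved in opposite directions between 2 h and 12 h, with the former lower and the latter higher at 12 h.

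Tgfb1 (Entrez 21803, chr7:26472021-26490096, plus strand, NCBIM37) encodes the founding isoform and the major one in epithelia. It had 19.9 and 23.7 CPM in the vehicle libraries, 46.0 and 52.9 CPM at 2 h and 48.0 and 45.9 CPM at 12 h. Both treated groups lay above vehicle without overlap and overlapped each other. The log2FC was 1.18 (SE 0.136, adjusted p = 0.00274) at 2 h and 1.11 (SE 0.136, adjusted p = 0.001) at 12 h, a 2.27-fold and a 2.16-fold higher level. Between 2 h and 12 h the difference was -0.07, with a 95% interval from -0.39 to 0.24 (adjusted p = 0.689). In cell cultures read in bulk, more transcript per cell and more cells that express a gene cannot be told apart, here and below.

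Tgfb2 (21808, chr1:188447065-188529871, minus strand) encodes an isoform known from heart, eye and skeletal development. Its level was 17.3 and 16.7 CPM in vehicle, 24.1 and 17.8 CPM at 2 h and 11.4 and 13.1 CPM at 12 h. The 2 h libraries were the highest and the 12 h libraries the lowest. Against vehicle the log2FC was 0.30 at 2 h (95% interval -0.14 to 0.74, adjusted p = 0.333) and -0.48 at 12 h (95% interval -0.92 to -0.03, adjusted p = 0.0823), and neither passed the threshold of 0.05. With the replicate number as a block the 12 h value was -0.47 with an adjusted p of 0.0427. Tgfb2 fell from 2 h to 12 h, with a log2FC of -0.78 (SE 0.186, adjusted p = 0.0197). That call was lost without replicate 1 at 2 h (-0.54, adjusted p = 0.0592), without replicate 1 at 12 h (-0.69, adjusted p = 0.139) and without replicate 2 at 12 h (-0.89, adjusted p = 0.0799).

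Tgfb3 (21809, chr12:87397694-87419991, minus strand) encodes the isoform known from fusion of the palate and from mammary involution. The libraries held 6.65 and 8.47 CPM in vehicle, 4.45 and 5.19 CPM at 2 h and 7.58 and 9.34 CPM at 12 h. The lowest values were those at 2 h, below both other groups, while vehicle and 12 h overlapped. The log2FC against vehicle was -0.65 at 2 h (SE 0.225, adjusted p = 0.109, or -0.64 with 0.0242 under the replicate block) and 0.16 at 12 h (95% interval -0.36 to 0.69, adjusted p = 0.587). Tgfb3 rose from 2 h to 12 h by a log2FC of 0.81 (SE 0.223, adjusted p = 0.0318). Leaving out replicate 1 at 2 h (0.70, adjusted p = 0.0889), replicate 1 at 12 h (0.95, adjusted p = 0.078) or replicate 2 at 12 h (0.65, adjusted p = 0.174) ended this call.

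**Figure D1:**
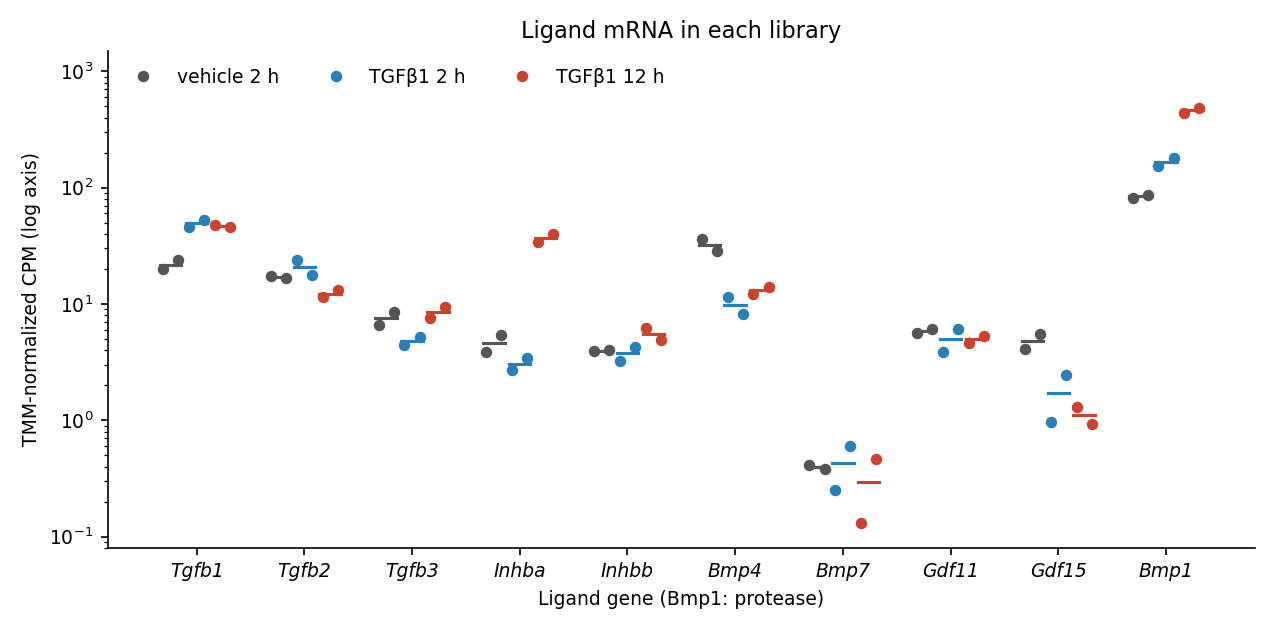
TMM-normalized CPM of the 10 genes on a log axis, with each library as a point (vehicle grey, TGFβ1 for 2 h blue, TGFβ1 for 12 h red) and the mean of the 2 replicates as a bar. Tgfb1 lies above vehicle at both times, Inhba stands apart at 12 h with 34.2 and 39.6 CPM, Bmp1 is higher at each time and Bmp4 is lower at both.

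Of the inhibin β subunits, Inhba rose late and steeply and Inhbb passed the threshold in no comparison. The subunits pair with each other to form activins, which signal through SMAD2 and SMAD3 as TGFβ does, or with the α subunit to form inhibins, which oppose activins. Inha, the gene of the α subunit, had 0 counts in all 6 libraries, which allows up to 0.191 CPM in the shallowest library (3 counts). This limit covers counting error only.

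Inhba (16323, chr13:16103684-16119044, plus strand) encodes the βA subunit of activin A. Its level was 3.82 and 5.41 CPM in vehicle and 2.68 and 3.43 CPM at 2 h, against 34.2 and 39.6 CPM at 12 h. The 2 h libraries were the lowest of the 6 and the 12 h libraries lay far above all others. The log2FC was -0.59 at 2 h (SE 0.239, adjusted p = 0.156, or -0.59 with 0.042 under the replicate block) and 2.998 at 12 h (SE 0.228, adjusted p = 0.000165). From 2 h to 12 h Inhba rose 12-fold, with a log2FC of 3.59 (SE 0.234, adjusted p = 0.000254). Ranked by log2FC in that comparison, it was gene 24 from the top of the 11080 tested.

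Inhbb (16324, chr1:121312042-121318825, minus strand) encodes the βB subunit. It had 3.94 and 4.01 CPM in vehicle, 3.24 and 4.28 CPM at 2 h and 6.23 and 4.88 CPM at 12 h. Both 12 h libraries were above the other 4, by less than the test requires. The log2FC was -0.08 at 2 h (95% interval -0.68 to 0.52, adjusted p = 0.862), 0.48 at 12 h (95% interval -0.11 to 1.07, adjusted p = 0.159) and 0.56 between the times (95% interval -0.02 to 1.15, adjusted p = 0.122).

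Promoter sequence was at hand for 7 of the 10 genes, from RefSeq on GRCm38.p6, and the 250 bases before the start site are printed for the early riser Tgfb1, the late riser Inhba, the ligand that fell at both times, Bmp4, and Tgfb2, which holds a motif. Capitals mark CAGAC, the core bases that SMAD3 and SMAD4 bind, searched on both strands.
Tgfb1, chr7:25686752-25687001, plus strand: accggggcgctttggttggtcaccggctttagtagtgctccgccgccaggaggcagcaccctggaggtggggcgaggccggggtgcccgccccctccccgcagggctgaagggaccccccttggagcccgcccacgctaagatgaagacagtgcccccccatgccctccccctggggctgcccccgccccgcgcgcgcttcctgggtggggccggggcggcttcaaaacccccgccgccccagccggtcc
Inhba, chr13:16011601-16011850, plus strand: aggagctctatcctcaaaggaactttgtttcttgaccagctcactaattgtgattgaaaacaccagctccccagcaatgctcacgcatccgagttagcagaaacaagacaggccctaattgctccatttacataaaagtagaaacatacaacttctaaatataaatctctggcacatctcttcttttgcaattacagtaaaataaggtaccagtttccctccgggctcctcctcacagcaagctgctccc
Bmp4, chr14:46390670-46390919, minus strand: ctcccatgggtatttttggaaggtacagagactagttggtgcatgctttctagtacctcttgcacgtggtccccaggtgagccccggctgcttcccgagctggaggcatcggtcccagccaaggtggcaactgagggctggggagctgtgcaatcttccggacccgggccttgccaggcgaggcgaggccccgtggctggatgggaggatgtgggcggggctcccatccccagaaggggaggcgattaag
Tgfb2, chr1:186705990-186706239, minus strand: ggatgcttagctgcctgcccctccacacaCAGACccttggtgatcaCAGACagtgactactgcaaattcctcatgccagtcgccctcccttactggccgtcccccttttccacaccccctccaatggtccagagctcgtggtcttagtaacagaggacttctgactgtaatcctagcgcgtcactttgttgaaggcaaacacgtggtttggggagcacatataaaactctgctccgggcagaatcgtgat
Only Tgfb2, at 2 places in the 300 bases from 250 before to 50 after the start, and Gdf15, once in each of its 2 listed promoters, held CAGAC among the 7 genes, against 49.6% of the 32851 promoters in the table. The AP-1 site TGANTCA (7.81% of promoters), the palindrome GTCTAGAC (0.213%) and the cAMP response element TGACGTCA (1.79%) were found in none of the 7. No motif contains another, and the absence of a motif says only that these letters are not in the window. Of the printed sequences that of Inhba was poorest in G and C, at 43.2%, and that of Tgfb1 richest, at 75.2%, with 63.2% for Bmp4, 53.6% for Tgfb2 and a median of 52.4% over all promoters.

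Among the BMP and GDF ligands the changes called were falls. Bmp4 fell within 2 h and was still low at 12 h, Gdf15 was low at 12 h, Gdf11 passed the threshold in no comparison, and Bmp7 was close to absent from these libraries.

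Bmp4 (12159, chr14:47003195-47010344, minus strand) encodes a BMP that signals through SMAD1 and SMAD5 and is known for its part in patterning and in branching of epithelial organs. It had 36.4 and 28.3 CPM in vehicle, 11.5 and 8.11 CPM at 2 h and 12.2 and 14.1 CPM at 12 h. All 4 treated libraries lay below both vehicle libraries. The log2FC was -1.72 at 2 h (SE 0.223, adjusted p = 0.0042) and -1.30 at 12 h (SE 0.219, adjusted p = 0.00368), a 3.3-fold and a 2.46-fold lower level. The 12 h libraries were the higher of the treated ones, but the difference of 0.42 (95% interval -0.11 to 0.95) had an adjusted p of 0.19.

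Gdf15 (23886, chr8:73153292-73156355, minus strand) encodes a divergent member of the family, known as a stress-induced hormone that acts through the receptor GFRAL in the hindbrain. The libraries held 4.12 and 5.47 CPM in vehicle, 0.961 and 2.47 CPM at 2 h and 1.31 and 0.924 CPM at 12 h. Every treated library was below vehicle, and the 2 h pair was spread most, with 19 and 49 counts. At 2 h the log2FC of -1.48 (SE 0.452) had an adjusted p of 0.0775, and under the replicate block it was -1.51 with 0.0109. At 12 h Gdf15 fell, with a log2FC of -2.09 (SE 0.469, adjusted p = 0.0118), having passed the filter through both vehicle libraries and 1 library at 2 h. This call was lost without vehicle replicate 2 (-1.87, adjusted p = 0.0546), without replicate 1 at 12 h (-2.38, adjusted p = 0.0586) or without replicate 2 at 12 h (-1.88, adjusted p = 0.0912). Between the times the difference was -0.61 (95% interval -1.78 to 0.56, adjusted p = 0.372).

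Gdf11 (14561, chr10:128319351-128328774, minus strand) encodes a close relative of myostatin that patterns the axial skeleton. Its values were 5.65 and 6.11 CPM in vehicle, 3.89 and 6.10 CPM at 2 h and 4.62 and 5.34 CPM at 12 h. The groups differed little beside the spread of the 2 h pair. The log2FC was -0.23 at 2 h (95% interval -0.87 to 0.40, adjusted p = 0.605) and -0.24 at 12 h (95% interval -0.87 to 0.39, adjusted p = 0.496).

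Bmp7 (12162, chr2:172693513-172765822, minus strand) encodes a BMP of kidney and eye development. It had 7 and 6 counts in vehicle, 5 and 12 at 2 h and 3 and 9 at 12 h, or 0.131 to 0.605 CPM over the 6 libraries. At this depth a change of severalfold either way could not be seen, since in a fit without a filter the 95% interval of its log2FC ran from -1.57 to 1.79 at 2 h and from -2.22 to 1.31 at 12 h.

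**Figure D2:**
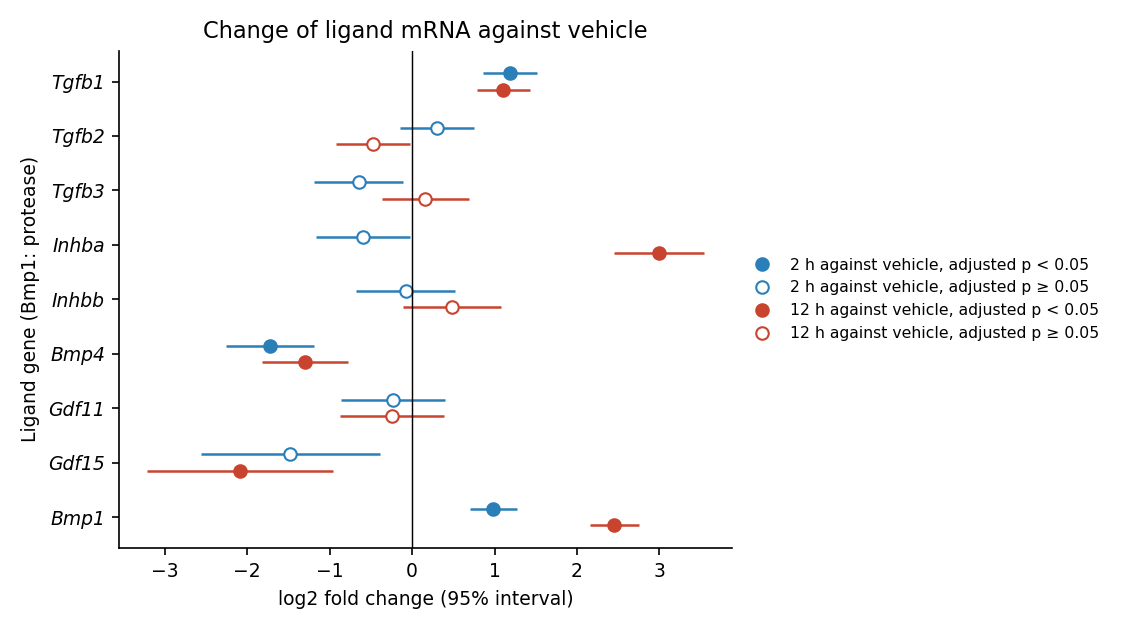
Log2FC against vehicle of the 9 genes tested, at 2 h (blue) and 12 h (red), with bars for the 95% interval of the fit and filled points where the adjusted p was under 0.05. Filled points lie to the right for Tgfb1 and Bmp1 at both times and for Inhba at 12 h, and to the left for Bmp4 at both times and for Gdf15 at 12 h.

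Bmp1 rose at both times and had the highest mean level of the 10 genes in each group, in CPM and per length of exon. Bmp1 (12153, chr14:70874364-70920067, minus strand) encodes an astacin-like metalloprotease, also known as procollagen C-proteinase, that trims procollagens and laminins and cleaves the BMP antagonist chordin. It had 81.3 and 86.8 CPM in vehicle, 154 and 178 CPM at 2 h and 437 and 483 CPM at 12 h. The 3 groups were stacked without overlap. The log2FC was 0.98 at 2 h (SE 0.119, adjusted p = 0.00324) and 2.45 at 12 h (SE 0.124, adjusted p = 4.9e-05), a 1.98-fold and a 5.47-fold higher level. From 2 h to 12 h it rose by 1.47 on the log2 scale (SE 0.119, adjusted p = 0.000484).

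Genes whose products are substrates or helpers of this protease were listed too, and 6 of the 14 counted passed the filter. This list and the gene lists below were chosen with earlier results of these data known. Their counts were not tested against the shares of all genes. Against vehicle 5 of the 6 rose at 2 h, and at 12 h 5 rose and 1 fell, where 9.91% of all genes rose at 2 h, and 21.8% rose and 21.5% fell at 12 h. Col1a1 passed the filter through treated libraries alone, and without it 4 of 5 rose at each time. The median log2FC of these 5 was 1.35 and 0.63, against -0.01 and 0.02 for all genes tested. Col1a1, the α1 chain of type I collagen, went from 11 and 20 counts in vehicle to 94 and 135 at 2 h and 252 and 211 at 12 h, and was called at both times. Col5a1, of type V collagen, had a log2FC of 2.36 (SE 0.479, and 1.88 with an adjusted p of 0.0957 without vehicle replicate 1) and 3.24 (SE 0.486), and Pcolce2, an enhancer of the protease, one of 1.57 (SE 0.214) and 2.45 (SE 0.217). Pcolce, the related enhancer, was the gene that fell at 12 h, from 93.6 ± 2.94 CPM in vehicle to 23.7 ± 0.913 CPM (SD, n = 2), which is -1.98 in log2FC (SE 0.117, adjusted p = 7.49e-05). The collagen partners Col1a2, Col3a1 and Col5a2 did not pass the filter. In each group their counts were higher in replicate 1 than in replicate 2, with 28 and 3 for Col1a2 at 12 h. Col5a1 had the higher count in replicate 2 of each group, with 64 and 136 in vehicle.

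Counted together, 2 of the 9 genes tested were higher and 1 was lower at 2 h, where 9.91% of all genes tested were higher and 5.25% lower. At 12 h 3 were higher and 2 lower, with 21.8% and 21.5% of all genes. Of these 2, Gdf15 passed the filter through both vehicle libraries and 1 library at 2 h, and without it Bmp4 alone was lower. Between 2 h and 12 h 3 were higher and 1 lower, with 15.2% and 18.9% of all genes. The counts over 9 genes were not tested against these shares. The median log2FC of the 9 was -0.23 at 2 h, 0.16 at 12 h and 0.42 between the times, against -0.01, 0.02 and 0.01 for all genes. Under the replicate block 2 of the 9 genes were higher and 4 lower at 2 h, where 16.4% of all genes were higher and 12.7% lower. Without TMM factors the median of all genes moved by -0.11 at 2 h and by -0.13 at 12 h, and the split of all genes went from 1098 higher and 582 lower to 854 and 975 at 2 h and from 2414 and 2385 to 1830 and 3047 at 12 h. Under that scaling the calls among the 9 stood at both times and Tgfb2 at 12 h joined them, with -0.60 and an adjusted p of 0.0336.

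To compare levels between genes, CPM were divided by the length of the exons of protein-coding transcripts in kb (RPKM). In vehicle the order of levels was Bmp1 (20.2 RPKM), Bmp4 (15.7), Tgfb1 (10.0), Tgfb2 (3.51), Gdf15 (2.59), Inhba (2.33), Tgfb3 (2.23), Gdf11 (1.45), Inhbb (0.934) and Bmp7 (0.108), of which Gdf15, Inhba and Tgfb3 overlapped in range. At 2 h Tgfb1, with 22.7 RPKM, stood above Bmp4, with 4.76 RPKM, whose range overlapped that of Tgfb2 at 4.32 RPKM. The next 5, from Inhba at 1.54 RPKM to Inhbb at 0.884 RPKM, each overlapped their neighbor in the order. At 12 h Bmp1 had 111 RPKM, Tgfb1 21.6, Inhba 18.6 and Bmp4 6.37, all apart in range, while Tgfb2 at 2.52 RPKM could not be told from Tgfb3 at 2.5, nor Inhbb at 1.3 from Gdf11 at 1.23.

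The makeup of the 9 growth factor transcripts, by their share of the summed RPKM, is described next. Bmp4 held 45.3% and 35.4% of their summed RPKM in vehicle, 15.2% and 10.0% at 2 h and 11.1% and 12.1% at 12 h. Tgfb1 held 23.5% and 28.1% in vehicle, 57.7% and 62.0% at 2 h and 41.5% and 37.4% at 12 h. Inhba held 4.96% and 7.04% in vehicle, 3.69% and 4.42% at 2 h and 32.5% and 35.4% at 12 h. Bmp4 had the largest share in both vehicle libraries, Tgfb1 in all 4 treated ones, and Inhba the next largest at 12 h. The sum was 38.9 and 38.8 RPKM in vehicle, 36.7 and 39.2 RPKM at 2 h and 53.2 and 56.5 RPKM at 12 h. Among the 3 TGFβ isoforms, Tgfb1 made up 62.3% and 64.7% in vehicle, 77.1% and 82.4% at 2 h and 82.8% and 79.4% at 12 h. Inhba was 67.6% and 74.4% of the inhibin β transcripts in vehicle, 64.0% and 63.2% at 2 h and 92.2% and 94.6% at 12 h. Shares sum to a whole, so that a rise of one gene lowers the share of the others, and no test was run on them.

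**Figure D3:**
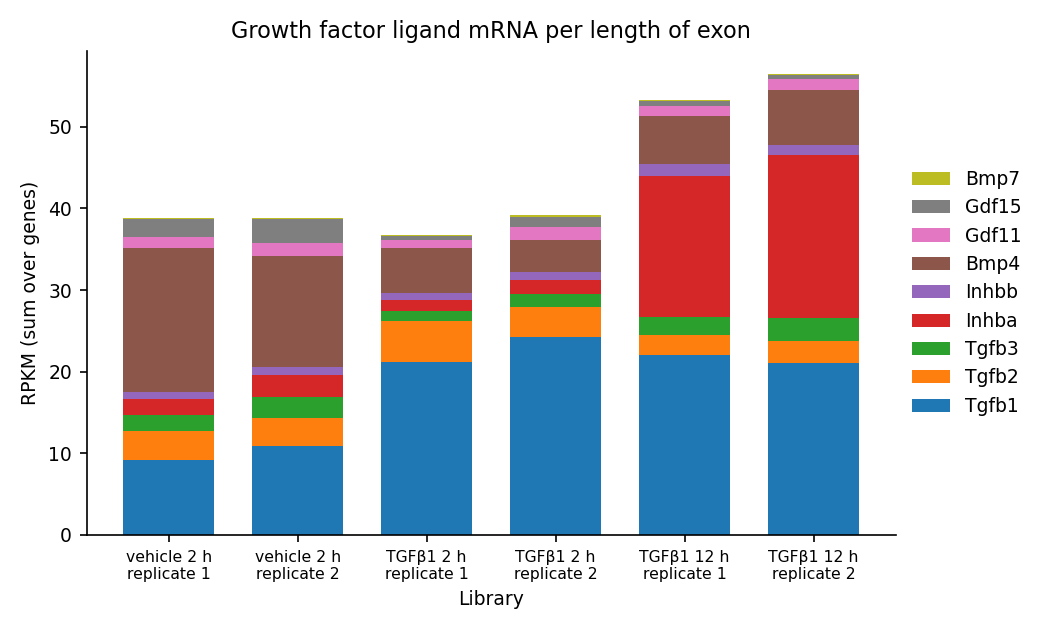
RPKM of the 9 growth factor genes stacked for each of the 6 libraries, on an axis from 0. Bmp4 fills the largest part of the vehicle bars and Tgfb1 that of the treated ones, and the 12 h bars are taller, at 53.2 and 56.5 RPKM, with Inhba at 17.3 and 20.0 RPKM.

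Most other ligands of the family were not detected at a level that could be tested. Among 27 further ligand genes, Bmp2 and Lefty1 passed the filter, and of the other 25, 9 had 0 counts in all libraries, 18 had at most 3 counts in each, the 9 included, and the highest reached 1.18 CPM. Lefty1, which encodes an inhibitor of Nodal signaling, went from 3.15 ± 0.0401 CPM in vehicle to 1.51 ± 0.0681 CPM at 2 h and 1.07 ± 0.276 CPM at 12 h (SD, n = 2). It fell at 12 h, with a log2FC of -1.55 (SE 0.300, adjusted p = 0.00658), but it passed the filter through the vehicle libraries alone and was not tested without either of them, and it had -1.05 at 2 h (adjusted p = 0.058, or 0.0202 under the replicate block). Bmp2, the BMP most like Bmp4, had 16.9 ± 0.0792 CPM in vehicle, 17.3 ± 4.54 CPM at 2 h and 21.4 ± 2.84 CPM at 12 h, and its log2FC was 0.04 (adjusted p = 0.926, and -0.08 without TMM factors) and 0.34 (adjusted p = 0.231).

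Genes that store, cut or release latent TGFβ were listed as well, also with earlier results of these data known. Among the 19 listed, 11 passed the filter, and 7 rose and 0 fell at 2 h, while 9 rose and 1 fell at 12 h, beside 9.91% of all genes higher and 5.25% lower at 2 h and 21.8% and 21.5% at 12 h. Without Ltbp2, which passed through the 12 h libraries alone, 6 of 10 rose at 2 h and 8 of 10 at 12 h, and their median log2FC was 0.78 at 2 h and 1.55 at 12 h. With single libraries left out or other settings, 4 to 9 of the 11, Ltbp2 included where it was tested, were called higher at 2 h and 7 to 9 at 12 h. Itgb6, the β6 chain of an integrin that frees TGFβ from its propeptide, had a log2FC of 2.54 (SE 0.191, adjusted p = 0.00063) at 2 h and 2.06 (SE 0.188, adjusted p = 0.000306) at 12 h. Thbs1, the matrix protein thrombospondin 1, which can activate TGFβ, had 1.62 (SE 0.365, adjusted p = 0.0303) and 5.32 (SE 0.423, adjusted p = 0.000195). Ltbp2, a latent TGFβ binding protein by name, had 1 count in each vehicle library, 15 and 7 counts at 2 h and 99 and 81 at 12 h, and was called at both times. Passing as it did through the 12 h libraries, it was bound to differ, and it was not tested without either of them, with vehicle and 2 h alone in the fit or at a minimum of 10 counts in every library. At 2 h the call of Thbs1 was lost without either vehicle library (adjusted p = 0.0761 and 0.142) or either 12 h library (0.0893 and 0.0898), and that of Ltbp2 without either vehicle library (0.176 and 0.147) or replicate 1 at 2 h (0.0843). Pcsk6, a proprotein convertase, was the gene that fell at 12 h, from 49.7 ± 2.35 CPM in vehicle to 6.85 ± 0.472 CPM (SD, n = 2), which is -2.86 in log2FC (SE 0.128, adjusted p = 3.69e-05).

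Secreted antagonists were fewer, with 7 of 22 past the filter, of which 3 rose and 0 fell at 2 h and at 12 h alike. Of all genes 9.91% were higher and 5.25% lower at 2 h, and 21.8% were higher and 21.5% lower at 12 h. The median log2FC of the 7 was 0.59 and 0.56. Under the replicate block 5 rose and 0 fell at 2 h, where 16.4% of all genes were higher and 12.7% lower. At 12 h 4 rose and 2 fell under the block, where 27.8% of all genes were higher and 27.5% lower. Nbl1, a BMP antagonist of the DAN family, had a log2FC of 1.63 (SE 0.174, adjusted p = 0.00205) and 1.99 (SE 0.174, adjusted p = 0.000273), and Vasn, which encodes the TGFβ-binding membrane protein vasorin, one of 0.83 (SE 0.139, adjusted p = 0.0104) and 1.27 (SE 0.139, adjusted p = 0.000634). Bmper, a BMP-binding protein, rose at 12 h by 2.76 (SE 0.171, adjusted p = 8.45e-05). Fst encodes follistatin, which binds activins, and rose at 2 h by 1.199 (SE 0.263, adjusted p = 0.0276), with 0.56 at 12 h (adjusted p = 0.129, or 0.54 with 0.0179 under the replicate block). At 2 h the call of Fst was lost without either vehicle library (adjusted p = 0.128 and 0.121) or either 12 h library (0.0702 and 0.07), and that of Vasn without either vehicle library (0.0585 and 0.0742). Nog, which encodes the BMP antagonist noggin and is named here after its values were seen, did not pass the filter. It had 0 counts in both vehicle libraries, 11 and 15 at 2 h and 37 and 39 at 12 h, at least 2.91-fold and at least 8.44-fold higher by the lowest library of each time against a floor of 3 counts in the shallower vehicle library, and in a fit without a filter its adjusted p was 0.00716 and 0.000334.

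Receptors of these ligands showed 3 rises at each time among the 8 of 17 that passed the filter, with 0 falls at 2 h and 1 at 12 h, beside the same 9.91% and 21.8% of all genes higher and 5.25% and 21.5% lower. The median log2FC of the 8 was 0.04 and 0.41. Under the replicate block 3 rose and 3 fell at 2 h, where 16.4% of all genes were higher and 12.7% lower. Acvr1, the type I receptor ALK2, had a log2FC of 2.88 (SE 0.186, adjusted p = 0.000421) at 2 h and 2.42 (SE 0.183, adjusted p = 0.000164) at 12 h. Tgfbr1, the type I receptor of TGFβ, had 2.50 (SE 0.360, adjusted p = 0.00608) and 1.43 (SE 0.348, adjusted p = 0.0161), and Bmpr2, a type II receptor of BMPs, 1.19 (SE 0.143, adjusted p = 0.00314) and 1.15 (SE 0.143, adjusted p = 0.00104). Acvr2a, a type II receptor of activins, was the gene that fell at 12 h (-0.95, SE 0.273, adjusted p = 0.0299), a call lost without any 1 of the 4 libraries compared (adjusted p = 0.0562 to 0.184), and under the replicate block it fell at 2 h too (-0.76, adjusted p = 0.0025). The 12 h call of Tgfbr1 was lost without vehicle replicate 2 (adjusted p = 0.0833) or either 12 h library (0.114 and 0.0502). Gfral, the receptor of Gdf15, had at most 1 count in any library.

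**Figure D4:**
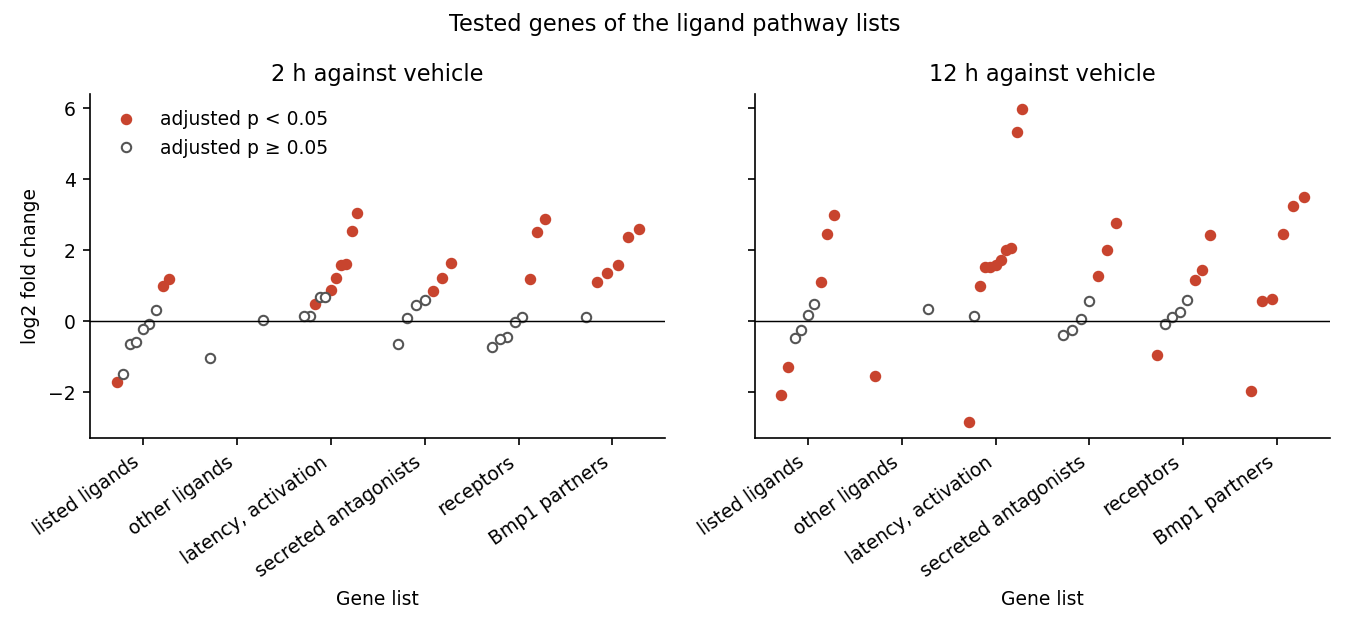
Log2FC against vehicle at 2 h (left) and 12 h (right) of the tested genes of each list, with each gene a point, filled red where the adjusted p was under 0.05. The genes of latency and activation lie mostly above 0 at both times, whereas the 9 tested genes described first lie on both sides, and the highest point of latency and activation is Ltbp2, whose fitted value rests on 1 count in each vehicle library.

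The genes with the patterns most like those of the 3 genes of the 10 with the widest range were sought by the distance between log2 CPM profiles over the 6 libraries, each centered on its own mean. For Inhba these were Ptgs2, which encodes cyclooxygenase 2, at 0.536, Col11a1, a fibrillar collagen chain, at 0.925 and Edn1, the endothelin 1 precursor, at 0.928, beside a median of 3.80 over all genes tested. Ptgs2 had a log2FC of -0.67 at 2 h and 2.58 at 12 h, Col11a1 one of 0.20 and 4.81, and Edn1 one of 0.02 and 3.88. For Bmp1 the nearest were Atxn1 at 0.176, Pxdn, which encodes the collagen IV crosslinking enzyme peroxidasin, at 0.180 and the actin crosslinker Actn1 at 0.262, beside a median of 2.50. For Gdf15 they were Mybl1 at 0.464, Nemp1 at 0.471 and Ung, a uracil-DNA glycosylase, at 0.475, beside 2.28. These distances describe the 6 libraries and were not tested.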

How the data were processed

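Stranded total RNA-seq was read from 6 NMuMG libraries, 2 of each of 3 groups taken from the submitters' labels. According to the study's methods the authors filtered reads, aligned them to mm9 with subjunc of Rsubread, kept unique reads, removed duplicates with SAMtools (0.1.19 in the submitters' notes) and counted exons by strand with featureCounts. The deposited values are raw counts per gene with no normalization.

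Counts were fitted in R 4.3.3 with edgeR 4.0.16 (TMM factors of 0.961 to 1.07, genes of at least 2 CPM in at least 2 libraries, 1 fit of the 3 groups, two-sided quasi-likelihood test, Benjamini-Hochberg adjustment within each contrast, threshold 0.05). The standard error is the absolute log2FC divided by the square root of F. Alternatives used limma 3.58.1 (voom, as in the study), DESeq2 1.42.0, other scalings and filters, the replicate block, 2 groups alone and each library left out. The script was tested on simulated data. RPKM used GENCODE exons on NCBIM37, the same build as mm9, and figures were drawn with matplotlib 3.10.9 in Python 3.11.15.

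Members and gene lists were chosen with earlier results of these data known. All 10 members are named, and from each list up to 3 called genes with the largest log2FC at 12 h and at 2 h, and other genes in the text were picked once their values had been seen. A gene that this rule would name is not reported here. Profiles took a pseudocount of 0.25 CPM. The replicates are called biological, with no further account of cultures, so that p-values measure the spread between these libraries. The pairing comes from the data: differences between replicates 1 and 2 correlated across genes in all pairs of groups (0.708 for vehicle and 2 h, 0.263 for vehicle and 12 h, 0.392 for 2 h and 12 h), and the common coefficient of variation was 0.148 without the replicate block and 0.091 with it.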

Additional observations from a re-analysis of the deposited data

Results flagged for a closer look

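The level of 4 of the 9 genes tested, where 34.1% of all genes were called, differed between the 2 times of TGFβ treatment, by the direct comparison of 12 h with 2 h in the quasi-likelihood test of edgeR, adjusted by Benjamini-Hochberg. The times also differ in the hours without serum and insulin, and with vehicle taken at 2 h the part of TGFβ in these differences cannot be told apart from that. The log2FC of that comparison was 3.59 for Inhba (adjusted p = 0.000254), with both 12 h libraries above both 2 h libraries. Bmp1 had 1.47 (adjusted p = 0.000484) and the same order of libraries. The value for Tgfb3 was 0.81 (adjusted p = 0.0318) and that for Tgfb2 was -0.78 (adjusted p = 0.0197), and neither held in every fit with 5 libraries.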

How the results depend on the processing

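Under 14 other settings per result (13 for Gdf15 between the times, which did not pass the filter with those 2 groups alone), the calls of Tgfb1, Bmp1 and Bmp4 against vehicle at both times, and those of Inhba and Bmp1 at 12 h in both of its comparisons, kept their direction and their side of the threshold. With the replicate block 6 of the 9 genes tested, Bmp1 included, were called at 2 h in place of 3, through Tgfb3, Inhba and Gdf15, and Tgfb2 joined at 12 h, and it changed no other call among the 9. Leaving out 1 library at a time, 3 to 4 of the 9 genes were called at 2 h, 4 to 6 at 12 h and 2 to 4 between the times. Gdf15 at 2 h was also called without replicate 2 at 2 h (-2.31), and Tgfb2 at 12 h without TMM factors, with only 2 groups in the fit and without either 2 h library (-0.60 to -0.48). Some values that had not passed the threshold changed sign without 1 library. The log2FC at 2 h then ran from -0.2962 to 0.0896 for Inhbb and from -0.5931 to 0.0353 for Gdf11, the positive values without replicate 1 at 2 h. For Tgfb3 at 12 h it ran from -0.0076 (without vehicle replicate 1, and -0.0060 without replicate 2 at 12 h) to 0.3417. Between the times it ran from -0.1707 to 0.0278 for Tgfb1, from -1.131 to 0.2223 for Gdf15 and from -0.2948 to 0.3501 for Gdf11, the positive values without replicate 2 at 2 h or, for Gdf11, also without replicate 1 at 12 h (0.0895), by limma-voom (0.0189) and with the replicate block (0.0103). The causes were not tested. Over all genes, 1680 were called at 2 h, against 3222 with the replicate block, 882 with only 2 groups and 618 to 2196 with 1 library left out, where the lone replicate is assumed to vary like the other groups. At 12 h 4799 were called, against 2822 to 5410, and between the times 3775, against 1605 to 3816. At this depth Bmp7 had 3 to 12 counts a library and Gdf15 18 to 86. The same settings were applied to the other gene lists after the data had been seen.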

Other observations

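Of the 20 counted genes next to the 10 genes on the chromosome, 12 were tested. Of these, 2 were called at 2 h and 6 at 12 h, where 15.2% and 43.3% of all genes were called. The genes below were named after their values were seen. B9d2 and Ccdc97, whose starts lie 5.84 kb and 32.1 kb from that of Tgfb1, had a log2FC of 0.47 (adjusted p = 0.105) and 0.51 (adjusted p = 0.0693) at 2 h and of -0.41 (adjusted p = 0.0828) and 0.16 (adjusted p = 0.433) at 12 h in the quasi-likelihood test of edgeR, adjusted by Benjamini-Hochberg. Gli3, a transcription factor of the Hedgehog pathway and the nearest counted gene on one side of Inhba at 549 kb, rose at 12 h with a log2FC of 2.65 (adjusted p = 0.002) and had 1.19 at 2 h (adjusted p = 0.1). Cdkn3, a cell cycle phosphatase gene 370 kb from Bmp4, fell at 12 h with -4.06 (adjusted p = 0.00106) and had -0.31 at 2 h (adjusted p = 0.653). Rrp15, a gene of ribosome assembly 43.4 kb from Tgfb2, rose at 12 h with 0.77 (adjusted p = 0.003), and Lyplal1, 589 kb on the other side, fell with -1.17 (adjusted p = 0.00354), while Tgfb2 had -0.48. Ift43, 3.52 kb from Tgfb3, rose at 12 h with 0.83 (adjusted p = 0.00318), Ralb, 82.5 kb from Inhbb, rose at 2 h with 0.57 (adjusted p = 0.0346) and at 12 h with 0.43 (adjusted p = 0.039), and Pgpep1, 27.2 kb from Gdf15, fell at 2 h with -0.38 (adjusted p = 0.0396). Ttll5 by Tgfb3 and Sarnp and Cd63 by Gdf11 were called at neither time. Whether neighbors change together was not tested.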
